A study of Mus musculus with 6 samples.

Results

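The genes described here are 10 members of the BMP and TGF-beta signaling pathways that endothelial cells are known to use, chosen by symbol from the 23183 gene symbols measured in brain microvessels. They are the receptors *Acvrl1*, *Bmpr2*, *Tgfbr1* and *Tgfbr2*, the co-receptor *Eng*, the ligand *Tgfb2*, the inhibitory SMADs *Smad6* and *Smad7*, and the target genes *Id1* and *Id3*. RNA was taken from cerebral microvessels of C57BL/6 mice in which a Cre recombinase under the control of *Tek*, a gene of endothelial cells, deletes *Crif1* (*Gadd45gip1*), which encodes a mitochondrial protein. Tek-Cre is also known to act in blood cells. The KO group held 3 mice with Tek-Cre and both *Crif1* alleles floxed (TEKCRIF1 KO), and the WT group held 3 mice with Tek-Cre and intact *Crif1* alleles, so that all mice carried the Cre. Each mouse gave 1 library of paired-end RNA sequencing. Age and sex of these mice are not given in the sources used here. Whole microvessels were collected by a dextran gradient and a strainer, and they bring pericytes, astrocyte end-feet and other cells with the endothelium.

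Ligands of the TGF-beta family bring a type II and a type I receptor together on the cell surface. The type II receptor phosphorylates the type I receptor, which then phosphorylates SMAD proteins that enter the nucleus with SMAD4. In endothelial cells, ALK1 (the product of *Acvrl1*) works with the co-receptor endoglin (*Eng*) and BMPR2 and passes BMP signals to SMAD1 and SMAD5, whereas ALK5 (*Tgfbr1*) works with the type II receptor encoded by *Tgfbr2* and passes TGF-beta signals to SMAD2 and SMAD3. *Id1* and *Id3*, inhibitors of DNA binding, are standard targets of the BMP branch, and SMAD6 and SMAD7 are induced by the pathway and limit it. Loss of *ACVRL1* or *ENG* function is known to cause hereditary hemorrhagic telangiectasia, a disease of fragile vessels that also affects the brain.

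The values are FPKM (fragment counts scaled by exon length and by the mapped total), which can be compared between genes because they are divided by transcript length. The depth estimated from the spacing of the lowest values was 8600000 to 11200000 fragments in WT libraries and 6300000 to 11500000 in KO libraries, and KO 2 was the shallowest. The targeted gene *Gadd45gip1* was at 18.8, 15.3 and 16.5 FPKM in the WT libraries and at 10.8, 7.54 and 10.4 FPKM in the KO libraries. Every KO value lay below every WT value, with a log2 fold change of −0.77 (SE 0.22, n = 3 per group, limma p = 0.0053, adjusted p = 0.841, exact permutation p = 0.1). All 10 endothelial markers were above 1 FPKM in every library, and their summed level was 1042 to 1419 FPKM in the WT libraries and 908 to 1234 FPKM in the KO libraries. The groups overlapped for 9 of these 10 markers, with log2 fold changes of −0.40 to 0.22. The exception was *Cdh5*, the cadherin of endothelial junctions, which was picked out after its values were seen. It was at 86.7, 92.4 and 91.3 FPKM in the WT libraries and at 50.8, 42.5 and 38.1 FPKM in the KO libraries. KO 1 and KO 3 stood apart in the 5 markers of choroid plexus epithelium, with summed levels of 8913 and 10755 FPKM against 3010 FPKM in KO 2 and 2946 to 3400 FPKM in WT mice. The astrocyte sum was 574 to 671 FPKM in the WT libraries and 442 to 480 FPKM in the KO libraries, the fibroblast sum was 1456 to 2213 FPKM and 980 to 1371 FPKM, and the smooth muscle sum was highest in WT 1 (838 FPKM) and KO 1 (1049 FPKM). The sums of the pericyte, microglia, oligodendrocyte, neuron and erythroid lists overlapped between the groups, though single markers of some of these lists did not, and no defining marker of any list except 1 erythroid gene was at 0 in a library. In bulk RNA, fewer cells of a type and less RNA per cell cannot be told apart.

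None of the 10 genes differed between KO and WT mice after adjustment over the 14247 genes tested (limma with Benjamini-Hochberg adjustment), and the share of all genes called at an adjusted p under 0.05 was 0%. At an unadjusted p under 0.05, *Tgfb2* was higher in KO mice and no gene was lower, where 2.77% of all genes tested were called higher and 3.11% lower. Every KO value was above every WT value for *Tgfb2* and for no other member, and no member had every KO value below every WT value, where 5.37% and 5.7% of all genes tested had these patterns. The fitted differences were above 0 for 3 genes and below 0 for 7, with a median log2 fold change of −0.09 beside −0.006 over all genes. Set against the mean of the endothelial markers, which moved the median of all genes to 0.22, they were above 0 for 7 genes and below 0 for 3. Relative to that median they were again above for 3 and below for 7, and without KO 2 they were above 0 for 6 and below for 4. The endothelial scale includes *Cdh5*, at a log2 fold change of −1.03, against −0.40 to 0.22 for the other 9 markers. A scale without *Cdh5* was not run.

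**Figure D1:**
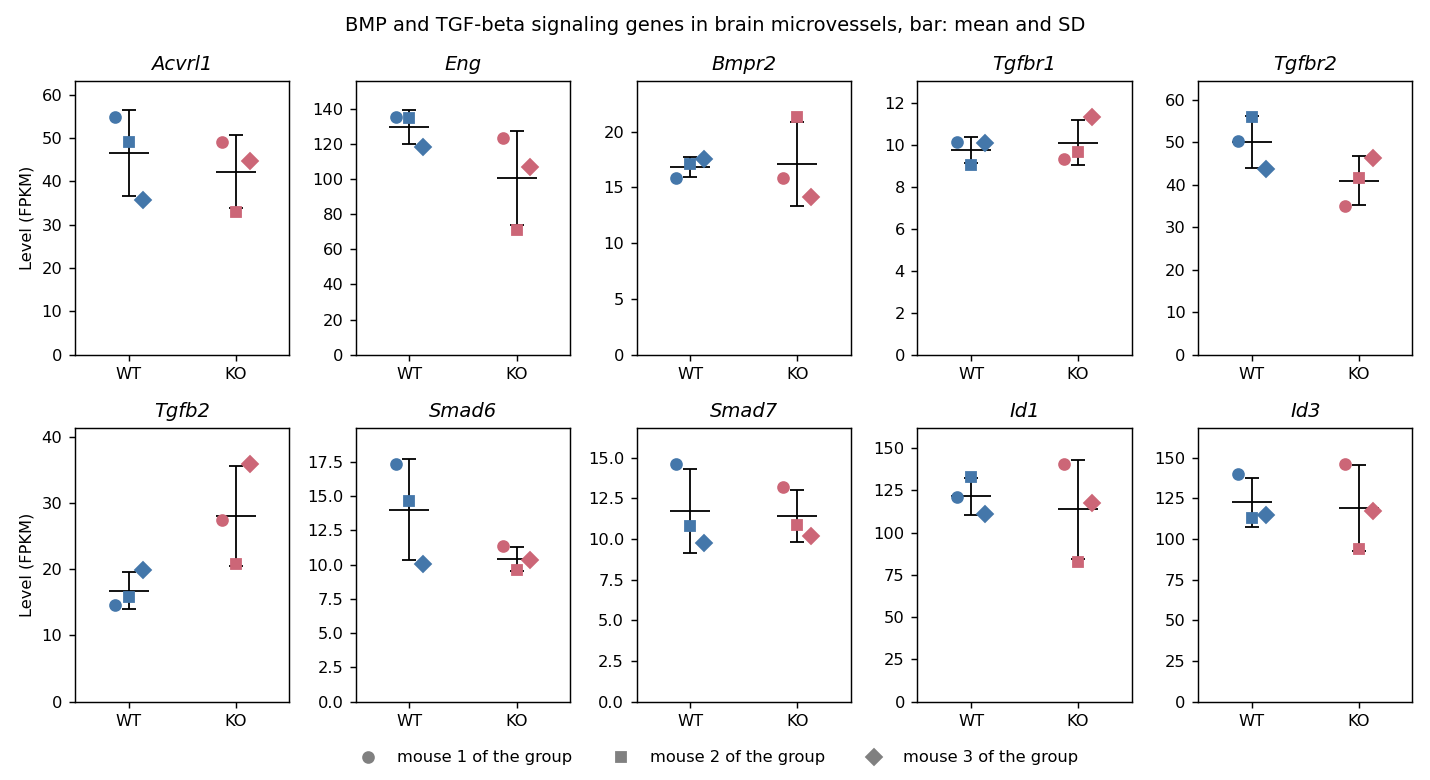
Level of each gene in FPKM (y axis, from 0) in the 3 WT and 3 KO libraries, with 1 point per mouse and a horizontal bar with whiskers for the mean and SD. The groups overlap in 9 panels, and in the Tgfb2 panel the KO points (20.8 to 35.9 FPKM) lie above the WT points (14.5 to 19.9 FPKM).

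In WT mice the levels formed 3 tiers. *Eng* (130 ± 9.65 FPKM, SD, n = 3), *Id3* (123 ± 15.1 FPKM) and *Id1* (121 ± 10.9 FPKM) were highest, and their ranges overlapped from neighbour to neighbour. *Tgfbr2* (49.96 ± 6.14 FPKM) and *Acvrl1* (46.6 ± 9.91 FPKM) followed, below the lowest *Id1* value of 111 FPKM and overlapping each other. *Bmpr2* (16.8 ± 0.870 FPKM), *Tgfb2* (16.7 ± 2.81 FPKM), *Smad6* (14.0 ± 3.68 FPKM), *Smad7* (11.7 ± 2.57 FPKM) and *Tgfbr1* (9.75 ± 0.635 FPKM) formed the lowest tier, in which each gene overlapped the next. The co-receptor and the BMP targets were therefore the most abundant members per length, and both type I and type II partners of the BMP and TGF-beta branches were present in every library. The coefficient of variation was larger in KO than in WT mice for 7 of 10 genes, beside 64.2% of all genes tested. The lowest of the 6 values was that of KO 2 for 5 of 10 genes, beside 25.0% of all genes tested.

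Among the type I receptors, *Acvrl1* (chromosome 15, 101128522 to 101145336 of mm10, 11 exons in its longest transcript) was at 54.9, 49.1 and 35.6 FPKM in the WT libraries and at 49.1, 32.8 and 44.8 FPKM in the KO libraries. The groups overlapped over most of their range, and the mean lay within the WT spread (42.2 ± 8.45 FPKM in KO mice). The log2 fold change was −0.13 (SE 0.24, 95% interval −0.66 to 0.39, limma adjusted p = 0.957, exact permutation p = 0.6), and it was 0.091 when set against the endothelial markers, below the median of all genes under that scale, and 0.033 without KO 2. *Tgfbr1* (chromosome 4, 47353222 to 47414931, 9 exons) had the smallest coefficient of variation of the receptors in KO mice (10.6%), though not in WT mice (6.51%). It was at 10.1, 9.02 and 10.1 FPKM in the WT libraries and at 9.34, 9.66 and 11.3 FPKM in the KO libraries. Its log2 fold change was 0.04 (95% interval −0.41 to 0.50, limma adjusted p = 0.986), and a correction for GC content gave −0.11. The intervals of both receptors include differences of over 0.3 on the log2 scale in either direction.

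The type II receptor *Bmpr2* (chromosome 1, 59763400 to 59879014, 13 exons) was at 15.9, 17.1 and 17.5 FPKM in the WT libraries and at 15.8, 21.3 and 14.1 FPKM in the KO libraries. KO 2 was the highest of the 6 libraries and KO 3 the lowest, so the KO range enclosed the WT range. The log2 fold change was 0.00 (95% interval −0.47 to 0.48, limma adjusted p = 0.999), and it was −0.16 without KO 2. *Tgfbr2* (chromosome 9, 116084293 to 116175360, 8 exons) was at 50.2, 56.0 and 43.7 FPKM in the WT libraries and at 34.9, 41.5 and 46.4 FPKM in the KO libraries. KO 1 and KO 2 were below every WT library and KO 3 was not. The log2 fold change was −0.28 (SE 0.20, 95% interval −0.73 to 0.16, limma adjusted p = 0.858, exact permutation p = 0.2). It was −0.057 against the endothelial markers, where the median of all genes was 0.22, and −0.18 without KO 1.

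*Eng* (chromosome 2, 32646595 to 32682669, 15 exons), whose product endoglin presents BMP ligands to ALK1, was at 136, 135 and 119 FPKM in the WT libraries and at 124, 71.1 and 107 FPKM in the KO libraries. Only KO 1 reached the WT range, and KO 2 was the lowest library by a wide margin. The log2 fold change was −0.40 (SE 0.24, 95% interval −0.93 to 0.13, limma adjusted p = 0.848, exact permutation p = 0.2). Without KO 2 it was −0.17 (unadjusted p = 0.3002, adjusted p = 0.681), and with KO 2 as the sole KO library, whose spread is then taken from the WT group, it was −0.86 (unadjusted p = 0.0032, adjusted p = 0.358). The gene overlaps *Fpgs* on the opposite strand, *Acvrl1* and *Tgfb2* overlap annotated antisense transcripts, and whether the counting used strand is not stated in the sources used here. Without KO 1 the log2 fold change of *Eng* was −0.57 (unadjusted p = 0.0498) and after quantile normalization −0.44 (unadjusted p = 0.0215), and neither passed adjustment. KO 2 also had the lowest endothelial marker sum (908 FPKM), and set against the endothelial markers, where the median of all genes was 0.22, *Eng* was at −0.17 on the log2 scale (limma unadjusted p = 0.434).

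*Tgfb2* (chromosome 1, 186622792 to 186705989, 7 exons) encodes a secreted ligand of the TGF-beta branch. It was at 14.5, 15.8 and 19.9 FPKM in WT mice (16.7 ± 2.81, SD, n = 3) and at 27.5, 20.8 and 35.9 FPKM in KO mice (28.0 ± 7.58). All KO values were above all WT values, but KO 2 exceeded WT 3 by less than the spread of either group. The ratio of the means was 1.67, and the log2 fold change was 0.69 (SE 0.24, 95% interval 0.15 to 1.23, limma unadjusted p = 0.0169, adjusted p = 0.841, exact permutation p = 0.1). With 3 mice against 3, 0.1 is the smallest p that the two-sided exact test can give. The libraries with the highest *Tgfb2*, KO 1 and KO 3, were those with the highest choroid plexus sums, and *Ttr*, the transthyretin gene and leading marker of that list, named after its values were seen, was at 8262 and 9787 FPKM in them, against 2771 FPKM in KO 2 and 2628 to 3093 FPKM in WT mice. With KO 2 as the sole KO library the log2 fold change of *Tgfb2* was 0.31 (unadjusted p = 0.278), and the part of choroid plexus RNA in the difference was not tested. Leaving out KO 3, WT 1 or WT 2 gave unadjusted p-values of 0.0662, 0.0622 and 0.0535, with log2 fold changes of 0.50, 0.60 and 0.65.

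**Figure D2:**
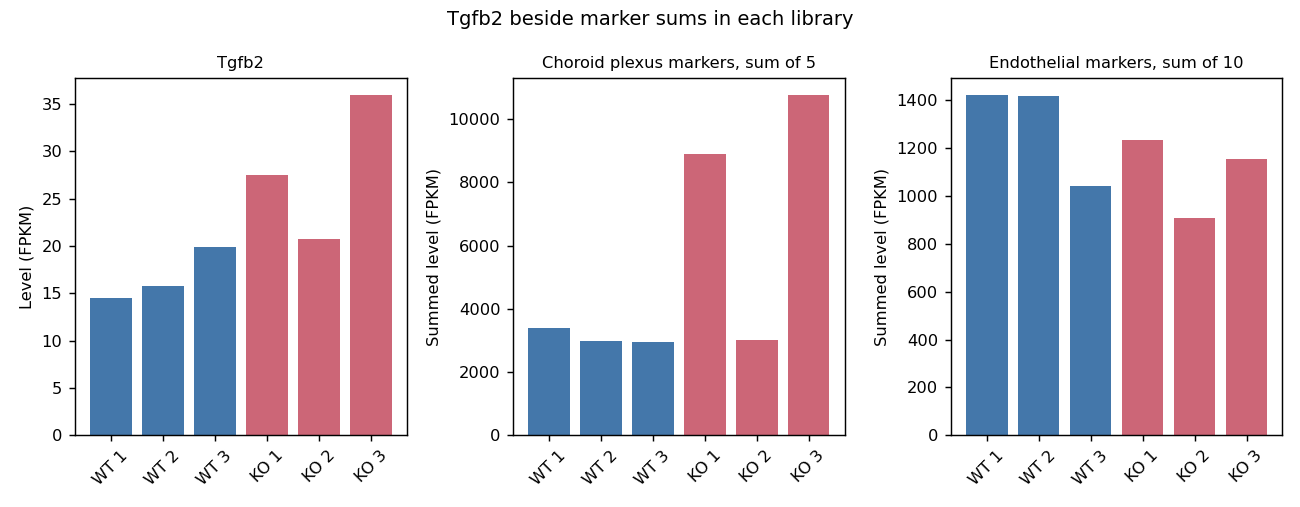
Bars from 0 give the level of Tgfb2 (left), the summed level of the 5 choroid plexus epithelium markers (middle) and that of the 10 endothelial markers (right), all in FPKM, for each library, blue for WT and red for KO. KO 1 and KO 3 are the highest libraries for Tgfb2 and for the choroid plexus sum (8913 and 10755 FPKM), while KO 2 has the lowest endothelial sum (908 FPKM).

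Of the inhibitory SMADs, *Smad6* (chromosome 9, 63953076 to 64022059, 4 exons), which acts mainly on the BMP branch, was at 17.3, 14.6 and 10.1 FPKM in the WT libraries and at 11.3, 9.60 and 10.4 FPKM in the KO libraries. The KO libraries were close together, and WT 3 lay among them. The log2 fold change was −0.36 (SE 0.24, 95% interval −0.89 to 0.16, limma adjusted p = 0.849, exact permutation p = 0.3), and the size depended on the setting. It was −0.57 without WT 3 (unadjusted p = 0.0439, adjusted p = 0.968), −0.20 without WT 1 (unadjusted p = 0.458), −0.18 after GC correction and −0.14 against the endothelial markers (unadjusted p = 0.572). *Smad7* (chromosome 18, 75367529 to 75395935, 4 exons), which blocks both branches at the type I receptor, was at 14.6, 10.8 and 9.75 FPKM in the WT libraries and at 13.2, 10.9 and 10.2 FPKM in the KO libraries. Its log2 fold change was −0.03 (95% interval −0.53 to 0.48, limma adjusted p = 0.993), and it was 0.20 against the endothelial markers, just under the median of all genes on that scale, and 0.11 after GC correction. WT 1 and KO 1 held the highest values of both genes within their groups.

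The BMP target *Id1* (chromosome 2, 152736251 to 152737410, 1 exon in its longest transcript) was at 121, 133 and 111 FPKM in the WT libraries and at 141, 82.5 and 118 FPKM in the KO libraries. KO 1 was the highest library and KO 2 the lowest, and the KO mean of 114 ± 29.3 FPKM lay within the WT range. The log2 fold change was −0.13 (SE 0.24, 95% interval −0.65 to 0.40, limma adjusted p = 0.960, exact permutation p = 0.8). It was 0.087 without KO 2, 0.10 against the endothelial markers, below the median of all genes on that scale, and −0.55 with KO 2 as the sole KO library (unadjusted p = 0.0241, adjusted p = 0.362). *Id3* (chromosome 4, 136143497 to 136145755, 3 exons) was at 140.0, 113 and 115 FPKM in the WT libraries and at 146, 93.7 and 117 FPKM in the KO libraries. It had the same order of libraries in KO mice as *Id1*, and its log2 fold change was −0.06 (95% interval −0.56 to 0.44, limma adjusted p = 0.981). Without KO 2 it was 0.10, against the endothelial markers 0.17, which is also below the median of all genes on that scale, and after GC correction 0.050.

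**Figure D3:**
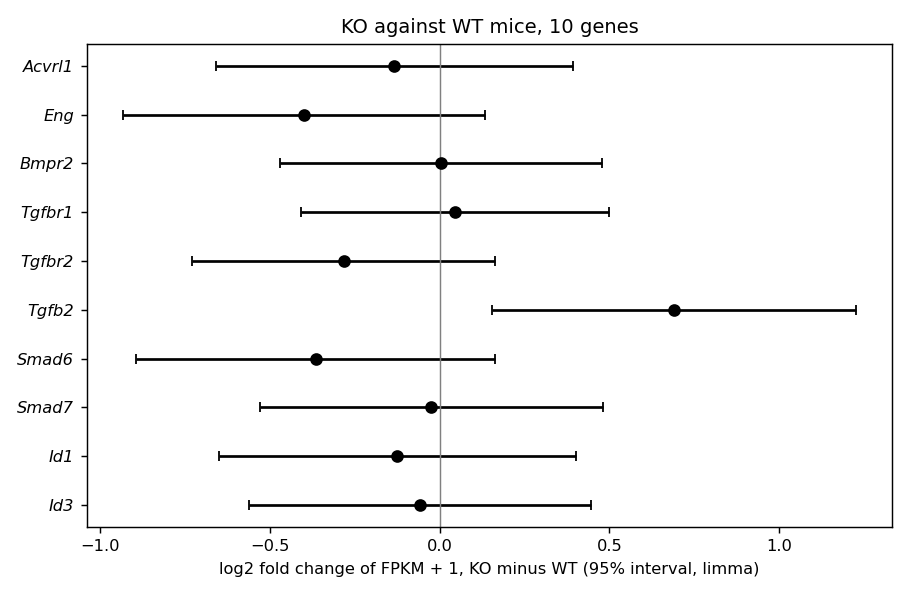
Fitted log2 fold change of FPKM + 1 (x axis, KO minus WT, limma, n = 3 per group) with its 95% interval for each of the 10 genes; the vertical line marks no difference. The interval of Tgfb2 (0.15 to 1.23) lies above 0 before adjustment, and the intervals of the other 9 genes include 0.

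Ratios between partner genes in the same library do not depend on scaling between libraries. *Acvrl1* exceeded *Tgfbr1* in every library, by 5.42, 5.45 and 3.53 times in WT mice and 5.26, 3.40 and 3.95 times in KO mice. The groups overlapped (difference of the log2 ratio −0.19, exact permutation p = 0.5), and the difference was 0.096 after GC correction. With 1 library left out it was −0.085 without WT 1, −0.081 without WT 2, −0.39 without WT 3, −0.36 without KO 1 and −0.045 without KO 2. *Bmpr2* was below *Tgfbr2* in every library, at ratios of 0.316, 0.306 and 0.401 in WT mice and 0.453, 0.514 and 0.305 in KO mice (difference 0.29, exact permutation p = 0.4). That difference was 0.14 without KO 2, 0.51 without KO 3 and 0.14 after GC correction. The ratio of *Smad6* to *Smad7* was 1.19, 1.35 and 1.03 in WT mice and 0.857, 0.883 and 1.02 in KO mice. Every KO value was below every WT value, though WT 3 and KO 3 nearly met, and the difference of the log2 ratio was −0.37 (n = 3 per group, exact permutation p = 0.1, the smallest the test allows). After GC correction the groups overlapped, with a difference of −0.32 (exact permutation p = 0.2). *Id1* and *Id3* stayed near parity, with ratios of 0.864, 1.17 and 0.968 in WT mice and 0.962, 0.881 and 1.00 in KO mice (difference −0.07, exact permutation p = 0.8, and 0.052 without WT 2). Each of the 4 ratios was tested on its own, without adjustment. No p-value below 0.1 was possible with this number of libraries.

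**Figure D4:**
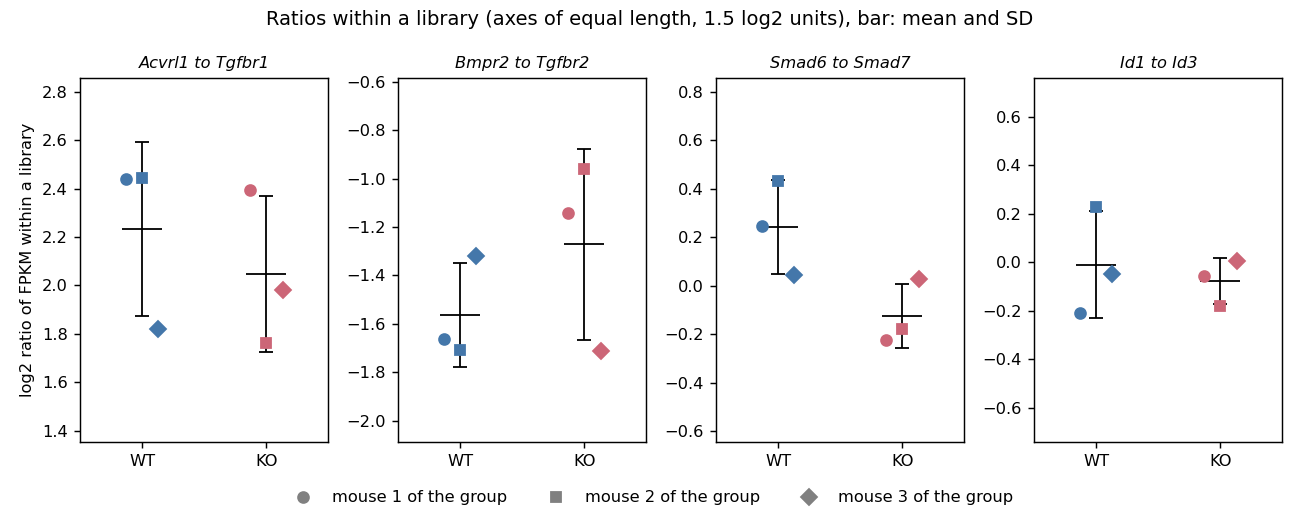
Log2 ratio of FPKM within a library for each pair of partner genes, with 1 point per mouse and bars for the mean and SD of 3 WT and 3 KO libraries; the 4 y axes have the same length and do not start at 0. The groups overlap in 3 panels, and in the Smad6 to Smad7 panel the highest KO point (0.03) lies just below the lowest WT point (0.05).

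Sequence upstream of annotated transcript starts was taken from RefSeq (GRCm38.p6), and 8 windows of 250 bases from 7 of the 10 genes were used. No window of *Acvrl1*, *Id1* or *Smad7* was searched, so the counts below leave these genes out. The windows were searched on both strands for the short SMAD-binding motif CAGAC, which reads GTCTG on the opposite strand, and for the GC-rich BMP-responsive motif GGCGCC, which do not overlap each other. The first was in 5 of the 8 windows and in 42.2% of 32851 windows of all genes, and the second in 2 of the 8 and in 9.59% of all windows. The windows of *Bmpr2* and *Id3* and 1 of *Tgfbr1* overlap the annotated span of the gene, and of the 5 others 3 held the first motif and 1 the second. The windows of *Tgfb2*, the gene with KO values above all WT values, of *Eng*, the member with the highest mean in WT mice, and of *Smad6*, an inhibitory SMAD of the BMP branch, are given 5′ to 3′ on the strand of the gene, with the SMAD-binding motif in capitals. They lie at chr1:186705990-186706239 (minus strand), chr2:32646345-32646594 (plus strand) and chr9:64022060-64022309 (minus strand).
Tgfb2: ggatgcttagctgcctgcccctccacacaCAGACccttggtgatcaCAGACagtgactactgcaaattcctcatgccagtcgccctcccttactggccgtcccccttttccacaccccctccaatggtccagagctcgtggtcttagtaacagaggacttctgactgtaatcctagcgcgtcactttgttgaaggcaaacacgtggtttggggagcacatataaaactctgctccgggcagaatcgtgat
Eng: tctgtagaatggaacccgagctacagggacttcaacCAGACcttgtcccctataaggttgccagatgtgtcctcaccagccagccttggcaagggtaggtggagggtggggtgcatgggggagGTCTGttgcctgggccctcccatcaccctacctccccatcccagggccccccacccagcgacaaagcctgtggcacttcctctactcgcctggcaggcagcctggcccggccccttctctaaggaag
Smad6: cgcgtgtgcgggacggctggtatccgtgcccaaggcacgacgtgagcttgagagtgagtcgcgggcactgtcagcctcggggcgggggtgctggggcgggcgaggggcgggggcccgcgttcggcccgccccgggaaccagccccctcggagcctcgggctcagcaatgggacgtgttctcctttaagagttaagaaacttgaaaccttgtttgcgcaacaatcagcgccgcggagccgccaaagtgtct
*Tgfb2* and *Eng* each held 2 matches, and *Smad6* held neither motif. A match of these letters is a description of the sequence and shows no binding.

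Of 94 other genes of the pathway, 73 averaged 1 FPKM or more and were tested. Of these, *Msx2* and *Gdf5* reached that mean only through the KO libraries and *Bmp3* only through the WT libraries, so their differences are descriptions and they are in the counts for completeness. None differed after adjustment, and 1 (*Msx2*) was higher and 5 were lower in KO mice at an unadjusted p under 0.05, where 2.77% of all genes tested were called higher and 3.11% lower. The groups did not overlap for 3 genes with KO above WT and for 7 with KO below WT, beside 5.37% and 5.7% of all genes tested. The median log2 fold change was −0.05 beside −0.006 over all genes. By role, the medians ran from −0.35 for the 5 TGF-beta and activin ligands tested to 0.11 for the 12 target genes. Over all genes tested, 50.8% of fitted differences were below 0. They were below 0 for all 6 receptor-regulated and common SMADs, 6 of 7 co-receptors and 9 of 10 BMP and GDF ligands, and against the endothelial markers for 2, 5 and 5 of them. Counted from the median of all genes on the latter scale they were lower for 5, 6 and 8. In the other roles, differences were below 0 for 4 of 5 TGF-beta and activin ligands, 4 of 6 receptors, 7 of 11 extracellular antagonists and latency proteins, 9 of 16 intracellular regulators and 5 of 12 target genes, and against the endothelial markers for 3, 1, 5, 2 and 1. Counted from that median they were lower for 3, 3, 7, 7 and 5.

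Of the genes called at an unadjusted p under 0.05 whose groups were apart, *Rgma*, a BMP co-receptor, was at 25.9, 33.1 and 31.6 FPKM in the WT libraries and at 15.1, 18.6 and 17.5 FPKM in the KO libraries (log2 fold change −0.78, SE 0.20, limma unadjusted p = 0.0026, adjusted p = 0.841). *Smad4*, the shared partner of both SMAD branches, was at 21.9, 21.7 and 20.9 FPKM in the WT libraries and at 13.7, 15.3 and 15.0 FPKM in the KO libraries (log2 fold change −0.52, SE 0.18, unadjusted p = 0.0179). *Ski*, a repressor of SMAD-driven transcription, was at 45.5, 47.4 and 44.95 FPKM in the WT libraries and at 31.5, 31.0 and 34.8 FPKM in the KO libraries (log2 fold change −0.49, SE 0.18, unadjusted p = 0.0204). In these genes the replicates of each group lay close together and the groups were well apart, which the rule that named them favours. *Nbl1*, a secreted BMP antagonist, varied more, at 231, 183 and 134 FPKM in the WT libraries and at 133, 97.7 and 106 FPKM in the KO libraries (log2 fold change −0.68, SE 0.25, unadjusted p = 0.0217), and WT 3 and KO 1 were nearly equal. *Msx2*, a BMP target encoding a homeobox factor, was low throughout, at 1.07, 0.265 and 0.450 FPKM in the WT libraries and at 2.12, 3.13 and 1.83 FPKM in the KO libraries. It passed the filter only through the KO libraries, with a mean of 0.594 FPKM in the WT group and 2.36 FPKM in the KO group, and its fitted log2 fold change of 1.09 is given as a description that rests on the pseudocount (1.96 with a pseudocount of 0.1). The other 4 had a limma adjusted p of 0.841 and an exact permutation p of 0.1. Set against the endothelial markers, where the median of all genes is 0.22, the log2 fold changes of *Smad4*, *Ski* and *Nbl1* were −0.30, −0.26 and −0.45. On that scale the limma unadjusted p was 0.226 for *Smad4*, 0.227 for *Ski* and 0.0576 for *Nbl1*. After GC correction the limma unadjusted p was 0.0522 for *Ski* and 0.0834 for *Nbl1*. When 1 library was left out, it reached 0.0538 for *Smad4*, 0.0691 for *Ski* and 0.106 for *Nbl1*, and it stayed under 0.05 for *Rgma*. The astrocyte and fibroblast sums were below the WT range in every KO library, every KO value was below every WT value for 3 of 8 pericyte, 2 of 6 astrocyte, 2 of 6 oligodendrocyte, 2 of 6 fibroblast and 1 of 6 microglia markers, and fitted differences were below 0 for 7, 5, 5, 6 and 5 of them. The part of these cell types in the differences of *Rgma*, *Smad4*, *Ski* and *Nbl1* was not tested.

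**Figure D5:**
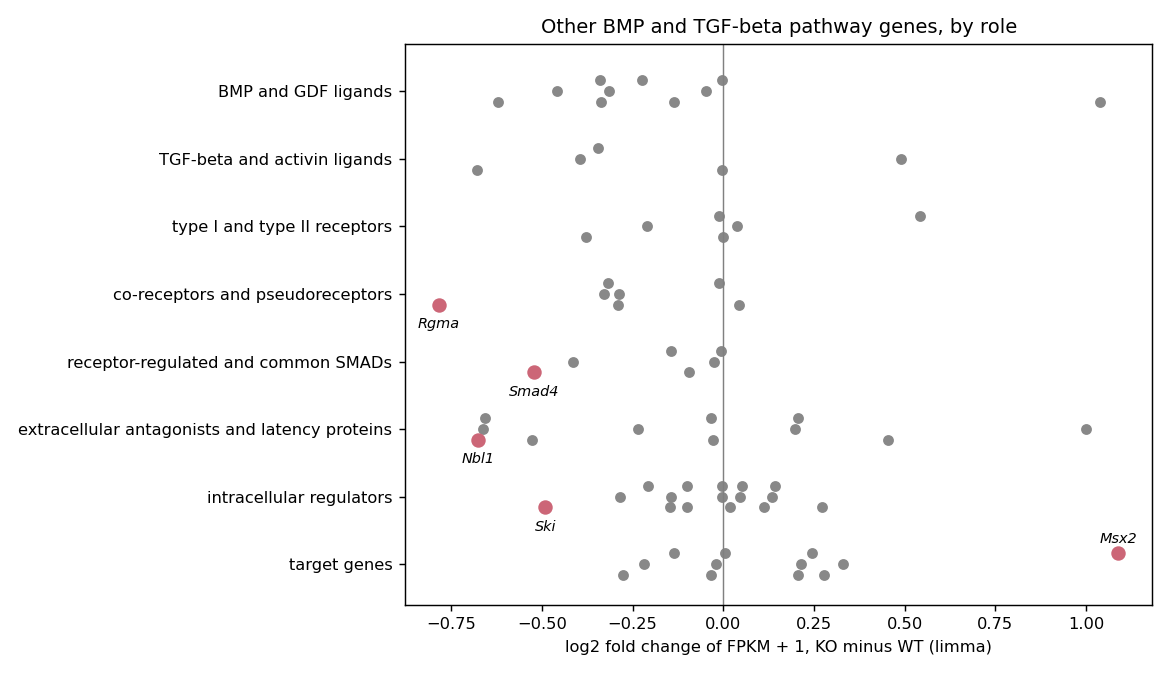
Fitted log2 fold change of FPKM + 1 (x axis, KO minus WT, limma) for the 73 tested pathway genes outside the 10, grouped by role on the y axis, with points staggered only for legibility. Red points with names are the 5 genes called at an unadjusted p under 0.05 whose groups were apart, from −0.78 for Rgma to 1.09 for Msx2, which passed the filter only through its KO values.

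The most abundant gene of each remaining role had overlapping groups. *Bmp6*, a ligand that vascular cells secrete, was at 81.7 ± 20.5 FPKM in the WT group and 58.6 ± 10.04 FPKM in the KO group (log2 fold change −0.46, limma adjusted p = 0.841), and *Tgfb3*, a second TGF-beta ligand, was at 35.7 ± 5.26 and 28.6 ± 8.35 FPKM (−0.35, limma adjusted p = 0.870). *Bmp6* was at −0.27 without WT 1 and −0.23 against the endothelial markers, and *Tgfb3* at −0.089 without KO 2 and −0.12 against the endothelial markers. With KO 2 as the sole KO library they were at −0.71 and −0.86. *Bmpr1a*, a type I BMP receptor, was at 19.7 ± 1.53 and 19.6 ± 1.47 FPKM, which puts it above *Bmpr2* in WT mice. *Mgp*, a matrix protein that binds BMPs, was the highest of the list at 389 ± 138 and 384 ± 137 FPKM. *Fkbp1a*, whose product holds type I receptors inactive, was at 129 ± 9.62 and 123 ± 29.6 FPKM, and *Ctgf*, a TGF-beta target, was at 58.9 ± 22.8 and 56.2 ± 36.1 FPKM. The circulating ALK1 ligands *Gdf2* and *Bmp10*, which other organs are known to make, were listed at 0 in all 6 libraries. These and the next 2 genes were picked out after their values were seen. *Ltbp4*, a latent TGF-beta binding protein, was the fifth gene called lower (log2 fold change −0.66, unadjusted p = 0.0354) and its groups overlapped. *Sostdc1*, a secreted BMP antagonist, was at 83.2, 78.4 and 111 FPKM in the WT libraries and at 262, 72.1 and 311 FPKM in the KO libraries, high in the same libraries, KO 1 and KO 3, as the choroid plexus markers.

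The genes whose values over the 6 libraries were most like those of *Acvrl1*, by the root mean square difference of centred log2(FPKM + 1) among 9949 other genes averaging 5 FPKM or more, were *Adgre5* (0.03), *Cxxc1* (0.06) and *Rela* (0.07). *Adgre5* was at 45.4, 41.6 and 31.6 FPKM in the WT libraries and at 41.5, 27.6 and 37.6 FPKM in the KO libraries. For *Id1* they were *Slc29a1* (0.04), *Gltscr2* (0.04) and *Ckap4* (0.05), and *Slc29a1* was at 28.7, 31.2 and 25.8 FPKM in the WT libraries and at 34.4, 19.6 and 29.6 FPKM in the KO libraries. In both sets KO 2 was the lowest library, as it was for *Acvrl1* and *Id1*, which follows from choosing genes by their likeness to these. The likeness rests on only 6 libraries of unequal depth.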

How the data were processed

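RNA of cerebral microvessels from 3 WT and 3 KO mice was sequenced. Per the labels and the study's methods, RNA was extracted with Trizol, strand-marked libraries (NEBNext Ultra II Directional) were read from both ends on a HiSeq X10, reads were trimmed with FASTX_Trimmer and BBMap, and mapped with TopHat to mm10. The authors deposited FPKM values, 1 per gene symbol and library. The counting tool, annotation and versions are not given in the sources used here. FPKM is scaled by each library's own total, so highly abundant genes in 1 library lower the values of the others there. Read counts and the authors' DESeq2 comparison were not used here.

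The genotype in the labels set the groups. The test was limma 3.58.1 (R 4.3.3) on log2(FPKM + 1) (trended prior variance, no further scaling) for genes averaging 1 FPKM or more, with Benjamini-Hochberg adjustment over all of them. The fit was also run on simulated data with changes larger than those of the members, which says nothing on differences of their size. Single values and the log2 ratios, taken without a pseudocount, were tested with exact two-sided permutation tests (scipy 1.17.1). With 1 library per mouse and no statement on litters or batches, p-values measure only the spread between these samples. Depth was estimated from the spacing of low FPKM values and annotated transcript lengths. Positions, exons and GC content came from GENCODE M21 (GRCm38, the same assembly as mm10).

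The members and all gene and marker lists were chosen with earlier results of these data known. Named were all members, the pathway genes called at an unadjusted p under 0.05 whose groups were apart, the most abundant gene of each role, *Gadd45gip1* and the 3 genes most like *Acvrl1* and *Id1*. *Cdh5*, *Ttr*, *Gdf2*, *Bmp10*, *Bmp3*, *Gdf5*, *Ltbp4* and *Sostdc1* were named outside this rule, after their values were seen. Alternatives were no filter, a filter at 5 FPKM, a pseudocount of 0.1, median scaling, quantile normalization, scaling to the endothelial markers, no variance trend, a replicate block, a loess correction for GC content (span 0.3) and leaving out each library.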

Additional observations from a re-analysis of the deposited data

How the results depend on the processing

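No adjusted call among the 10 genes or the wider list was made or lost under any alternative. The number of all genes with an adjusted p under 0.05 (limma) was 0, with 0 to 4 when 1 library was left out (1 without WT 3, 4 without KO 2 and 4 without KO 3) and 7 without KO 1 and KO 3, an alternative chosen after seeing the data in which the lone KO library is assumed to vary like the WT group. Genes with an unadjusted p under 0.05 numbered 838, with 450 to 1871 when 1 library was left out (450 without WT 2, 510 without KO 1, 1871 without KO 2) and 1825 without KO 1 and KO 3. Of the 10 genes, 1 had an unadjusted p under 0.05, with 2 under quantile normalization, 0 to 2 when 1 library was left out and 2 without KO 1 and KO 3. Of the wider list, 6 had one, with 3 to 9 when 1 library was left out and 17 without KO 1 and KO 3. *Tgfb2* kept its sign in all 16 alternatives (0.31 to 0.92), as did *Eng*, *Tgfbr2*, *Smad6* and *Gadd45gip1*.

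Against the endothelial markers (median of all genes 0.22), log2 fold changes that were below 0 became 0.091 for *Acvrl1*, 0.20 for *Smad7*, 0.10 for *Id1*, 0.17 for *Id3*, 0.21 for *Bmpr1a*, 0.19 for *Mgp*, 0.13 for *Fkbp1a* and 0.0077 for *Ctgf*. GC correction gave −0.15 for *Bmpr2*, −0.11 for *Tgfbr1*, 0.11 for *Smad7*, 0.050 for *Id3* and 0.096 for the log2 ratio of *Acvrl1* to *Tgfbr1*. *Bmpr1a* was at 0.00076 after median scaling, 0.022 after quantile normalization and 0.081 without KO 1 and KO 3, where *Tgfbr1* was at −0.011. When 1 library was left out, the ranges were −0.31 to 0.033 for *Acvrl1*, −0.16 to 0.12 for *Bmpr2*, −0.033 to 0.095 for *Tgfbr1*, −0.14 to 0.13 for *Smad7*, −0.29 to 0.087 for *Id1*, −0.22 to 0.10 for *Id3*, −0.059 to 0.045 for *Bmpr1a*, −0.28 to 0.26 for *Mgp*, −0.22 to 0.12 for *Fkbp1a*, −0.70 to 0.30 for *Ctgf* and −0.17 to 0.052 for the log2 ratio of *Id1* to *Id3*. The scale set by the endothelial markers shifts every gene by the same amount, so its sign changes come to any gene slightly below 0. The cause of the other reversals was not tested.

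The replicate numbers of the sample titles were checked for pairing. The deposited column headers carry different numbers, by which only WT 2 and KO 3 share one, and the block did not pair these libraries. Same-numbered libraries correlated at 0.037, 0.027 and 0.002 in their deviations from the group means, and not every library correlated best with its own number. With the replicate block, 871 genes had an unadjusted p under 0.05 and 0 an adjusted one. It changed no adjusted call, and *Tgfb2* had an unadjusted p of 0.0116. At estimated depths of 6300000 to 11500000 fragments, members were estimated at 180 to 5200 fragments per library.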
